A study of Mus musculus with 5 samples.

Results

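The 46 genes described here encode the machinery of mitosis: the cyclins and kinases that drive it, the spindle checkpoint, the kinetochore, spindle motors, the proteins of cytokinesis and the condensins that compact chromosomes. They were taken as a list of symbols by known function, chosen with earlier results of these data known. Shares of the list set beside those of all genes are therefore descriptions, not tests. All 46 were found among the 20583 gene symbols of the deposited count table. Where a symbol had several transcript rows, the row with the highest mean count over the 5 libraries was used. The data are messenger RNA profiles of bone marrow-derived macrophages, the phagocytes obtained when marrow cells are cultured with M-CSF, here at 25 ng/ml for 7 days. Wild type libraries (n = 3, replicates 1, 2 and 3) and NICcA libraries (n = 2, replicates 2 and 3) both came from mice of 7 to 8 weeks on a C57BL/6 background. Elsewhere NIC denotes the Notch intracellular domain, the part of the receptor that acts in the nucleus, but the labels do not spell NICcA out and name no promoter or Cre behind it. Nor do they say that libraries of 1 genotype came from separate animals, so p-values measure no more than library-to-library spread, possibly technical.

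Mitosis begins when Cdk1, bound to cyclin A or cyclin B, phosphorylates proteins of the nucleus and cytoskeleton, after which chromosomes condense, attach to the spindle through their kinetochores and are pulled apart once the spindle checkpoint is satisfied. Most genes of this programme are transcribed in a burst in G2 and M phase. The DREAM complex represses them in resting cells, and the complexes of MuvB with B-Myb and then Foxm1 activate them in cycling ones. Their mRNA in a bulk sample therefore marks cycling cells, and fewer cycling cells cannot be told apart from less mitotic mRNA per cell. M-CSF is a mitogen for macrophages and their progenitors, and cultures of this kind hold dividing cells until they mature.

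All libraries carried these transcripts, and wild type replicate 3 lay at 1 end of the spread of libraries. Total counts lay between 57442309 and 76562905 per library, and mean counts of the 46 genes ran from 97.8 for Cdc25c to 17225 for Mki67. The number of genes listed at a count of 0 was 2364 in wild type replicate 3, against 3260 to 5254 in the other 4 libraries. A principal component analysis used log2 CPM, counts divided by the scaled library size. On its first axis (55.7% of the variance over all tested genes), the positions were -1.06, -18.9 and -57.9 for wild type replicates 1, 2 and 3, against 53.7 and 24.1 for NICcA replicates 2 and 3. NICcA replicate 2 thus lay at the other end, almost as far from 0. Of 9 macrophage markers found, Csf1r, the M-CSF receptor, was at 843 to 1146 CPM, and Cd68 and Lyz2 were abundant in every library. Results that rest on wild type replicate 3 are given below with and without it.

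The 46 genes formed a gradient over the libraries that ran within the wild type group as well as between genotypes. Both NICcA libraries stood high, wild type replicate 1 stood close to them, wild type replicate 2 was lower and wild type replicate 3 was lowest. The summed level of the 46 genes came to 1601, 937 and 558 CPM across wild type replicates 1, 2 and 3, against 1698 and 1718 CPM across NICcA replicates 2 and 3. Wild type replicate 1 lay above replicate 2 and replicate 2 above replicate 3 in 45 of the 46 genes, an order seen in 18.8% of all 13341 genes tested. Wild type replicate 3 was the lowest library of the 5 for 45 genes (29.2% of all genes). Pttg1 was the exception to both counts. The median ratio of wild type replicate 1 to replicate 3 was 3.28 over the 46 genes and 1 over all genes, and it reached at least 2 in 42 of them, against 7.92% of all genes. The median ratio of the NICcA mean to wild type replicate 1 was 1.12, and to wild type replicate 3 it was 3.7.

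**Figure D1:**
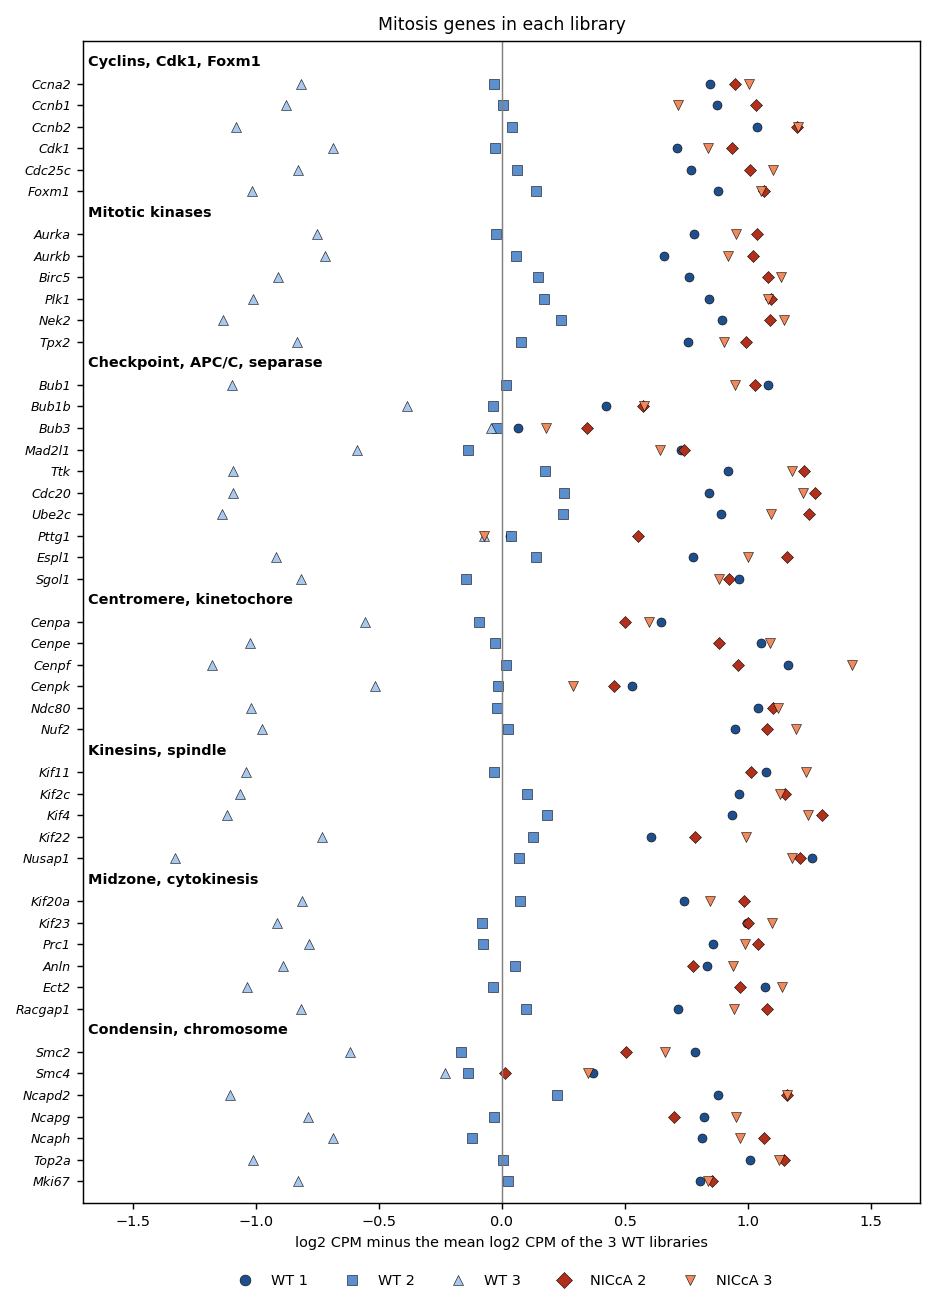
Level of each of the 46 genes in each library, as log2 CPM minus the mean log2 CPM of the 3 wild type libraries (x axis), with genes on the y axis grouped by role and 1 symbol per library. Wild type replicate 3 lies farthest left and wild type replicate 1 lies among or near the NICcA libraries for most genes, while Bub3, Pttg1 and Smc4 show little spread.

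Between genotypes, all 46 genes had a positive log2 fold change (NICcA against wild type; 50.5% of all genes), and 0 passed the test across all genes. The median log2 fold change was 0.85, with a range from 0.16 for Smc4 to 1.05 for Kif4, while the median over all tested genes was 0.0028. By the quasi-likelihood test of edgeR, adjusted over all rows by Benjamini-Hochberg, 0 of 46 genes passed an adjusted p of 0.05 (adjusted p from 0.34 to 0.72), where 0.03% of all genes were called higher and 0% lower. At an unadjusted p below 0.05 the test took 1 of the 46, Bub3, against 7.68% of all genes on the higher side, and 0 of 46 on the lower side, against 6.83%. DESeq2, the other count test, also passed 0 of 46 after adjustment (2.05% of all genes called higher), and it took 13 at an unadjusted p below 0.05 (8.78% of all genes). limma-voom passed 0 of 46 and took 22 unadjusted (8.88% of all genes). For 30 of the 46 genes both NICcA libraries lay above all 3 wild type libraries, against 18.3% of all genes, and 0 of the 46 lay below (18.5%). In the same 30 wild type replicate 1 also lay above replicate 2 and replicate 2 above replicate 3, an order of all 5 libraries that 7.82% of all genes had. The order was NICcA 2, NICcA 3, wild type 1, 2 and 3 from high to low in 19 of them (4.8% of all genes) and had NICcA 3 first in 11 (3.04%). In the other 16 genes wild type replicate 1 reached or passed at least 1 NICcA library, or, for Pttg1, NICcA replicate 3 was the lowest library.

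The difference between genotypes depended on which wild type library was included. Without wild type replicate 1, 42 of the 46 genes had an unadjusted p below 0.05 in edgeR (11% of all genes on the higher side) and the groups did not overlap for 45 (26% of all genes), with a median log2 fold change of 1.40. The 4 genes outside the 42 were Bub3, Pttg1, Cenpk and Smc4. Without wild type replicate 3, the lowest library for most of these genes, the median log2 fold change was 0.51. In that fit 8 genes had an unadjusted p below 0.05 (6.54% of all genes) and the groups again did not overlap for 30 (21.4% of all genes). Those 8 were Aurkb, Birc5, Cdc20, Espl1, Kif4, Kif22, Racgap1 and Ncapd2. Without wild type replicate 2 the count at an unadjusted p below 0.05 was 0 (5.86% of all genes), with 30 not overlapping (27.6%). It was also 0 without NICcA replicate 2 (1.88%), with 36 not overlapping (27.2%), and 2 without NICcA replicate 3 (7.15%), with 33 not overlapping (31.9%). In all 5 of these fits 0 of 46 passed after adjustment.

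**Figure D2:**
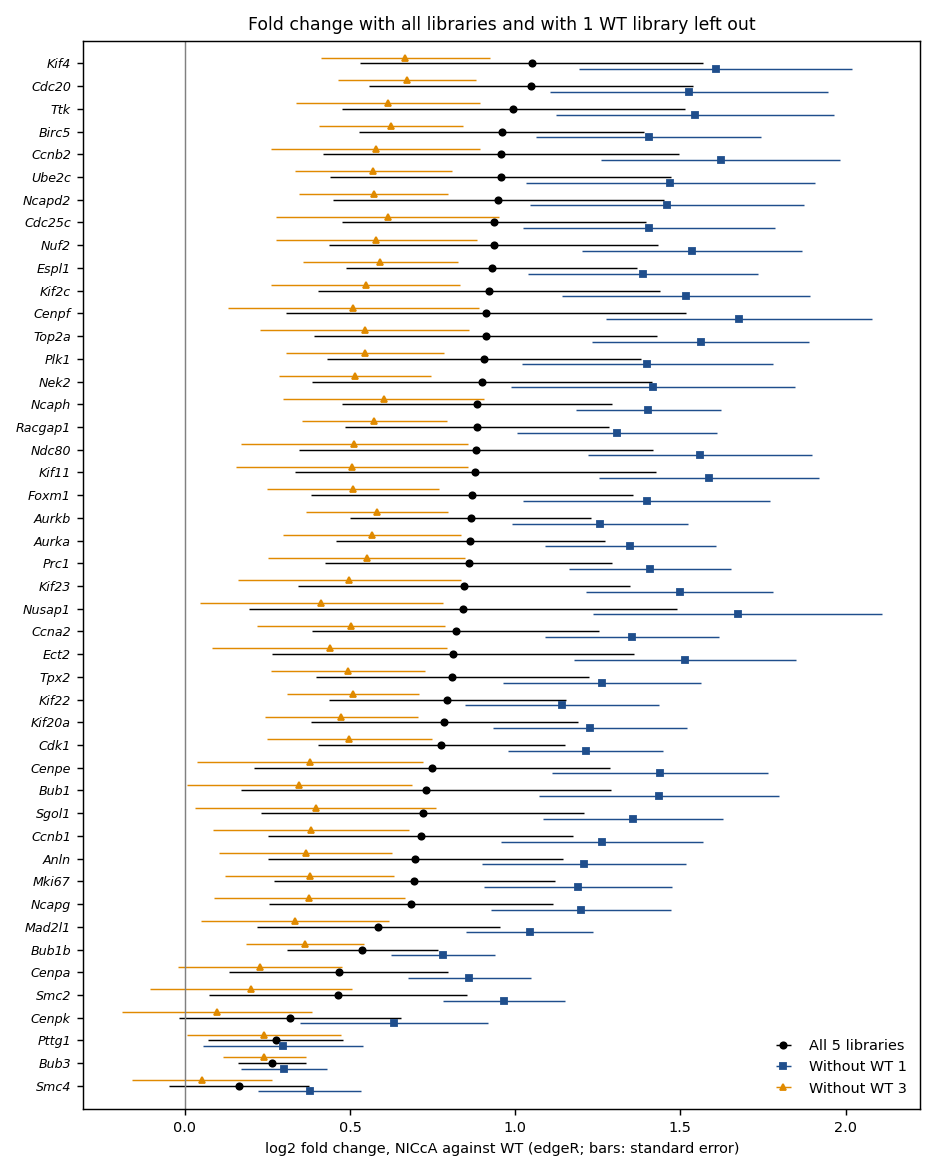
Log2 fold change of NICcA against wild type for each of the 46 genes (x axis; edgeR, bars are standard errors), with genes on the y axis ordered by their value from all 5 libraries. Circles use all libraries, squares leave out wild type replicate 1 and triangles leave out wild type replicate 3, and the median runs from 0.51 without wild type replicate 3 to 1.40 without wild type replicate 1.

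The promoters of these genes are shown for the letters that DREAM and its partners are known to use. The CHR element (TTTGAA or TTCGAA) is bound by the MuvB core of DREAM, and the CCAAT box is bound by the factor NF-Y, often found beside it. RefSeq promoter windows on GRCm38.p6, of 250 bases before to 50 bases after a start site, were at hand for 39 of the 46 genes. Searched on both strands, the letters TTTGAA or TTCGAA occurred in 29 of the 39 genes (74.4%), against 21.7% of 27025 genes with a window. CCAAT occurred in 30 of 39 (76.9% against 41.1%), and both in 1 window in 26 of 39 (66.7% against 8.61%). These are matches of letters, not sites shown to be bound, and the end base of a CHR match can also be that of a CCAAT match. The genes were listed by function with earlier results of these data known. Whether the motifs relate to the order of libraries was not tested. The printed genes, chosen without a rule, are given with the 100 bases before the first listed start site. They are Cdc20, Ube2c, Top2a, Cdk1, Espl1 and Kif11, which varied by more than 2-fold over the libraries, then Bub3 and Pttg1, which did not. Capitals mark CHR and CCAAT letters on either strand, so TTCAAA and ATTGG are the same motifs read on the other strand.
Cdc20, chr4:118437344-118437443, minus strand: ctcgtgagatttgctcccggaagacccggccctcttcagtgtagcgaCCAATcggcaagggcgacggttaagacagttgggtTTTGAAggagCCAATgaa
Ube2c, chr2:164769829-164769928, plus strand: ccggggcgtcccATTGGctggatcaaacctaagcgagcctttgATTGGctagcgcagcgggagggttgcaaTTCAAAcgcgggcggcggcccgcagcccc
Top2a, chr11:99024190-99024289, minus strand: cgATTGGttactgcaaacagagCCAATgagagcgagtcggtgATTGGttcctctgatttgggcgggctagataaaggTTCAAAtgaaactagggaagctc
Cdk1, chr10:69352913-69353012, minus strand: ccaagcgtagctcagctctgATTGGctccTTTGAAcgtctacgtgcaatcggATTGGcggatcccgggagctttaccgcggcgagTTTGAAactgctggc
Espl1, chr15:102296193-102296292, plus strand: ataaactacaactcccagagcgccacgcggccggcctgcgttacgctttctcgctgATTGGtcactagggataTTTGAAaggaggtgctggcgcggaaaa
Kif11, chr19:37376282-37376381, plus strand: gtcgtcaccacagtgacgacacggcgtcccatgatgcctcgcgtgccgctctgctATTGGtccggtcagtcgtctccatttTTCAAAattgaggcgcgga
Bub3, chr7:131560270-131560369, plus strand: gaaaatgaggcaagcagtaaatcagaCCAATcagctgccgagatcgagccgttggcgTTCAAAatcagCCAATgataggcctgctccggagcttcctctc
Pttg1, chr11:43425982-43426081, minus strand: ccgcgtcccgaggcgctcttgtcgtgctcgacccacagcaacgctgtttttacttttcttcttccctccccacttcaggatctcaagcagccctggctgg
In these stretches Cdk1 held 2 CHR matches and Cdc20, Ube2c, Top2a, Espl1 and Kif11 held 1 each, all with at least 1 CCAAT. Bub3 also held 1 CHR match and 2 CCAAT boxes, and Pttg1 held 0 of either. Motif-free windows were not limited to genes of little variation. Nusap1, Nuf2, Birc5, Ncaph and Mad2l1 varied by more than 2-fold, and their windows also held neither motif.

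The cyclins, their kinase and its regulators form the first role group, and all 6 followed the gradient of wild type libraries. Ccnb1, which encodes the cyclin B1 that activates Cdk1 at mitotic entry, was at 34.7, 19.0 and 10.3 CPM across wild type replicates 1, 2 and 3, against 38.8 and 31.1 CPM across NICcA replicates 2 and 3. Its NICcA replicate 3 therefore lay below wild type replicate 1, and the groups overlapped (log2 change 0.71, SE 0.46, adjusted p = 0.48 with edgeR's quasi-likelihood test, as for all adjusted p-values below unless named). Ccnb2, the second B-type cyclin, was at 22.4, 11.2 and 5.14 CPM across wild type, against 25.0 and 25.1 CPM across NICcA, so both NICcA libraries were just above the highest wild type library (log2 change 0.96, SE 0.54, adjusted p = 0.43). Ccna2, the cyclin of S phase and early mitosis, was at 44.9, 24.4 and 14.2 CPM against 48.1 and 50.001 CPM. Cdk1 itself was at 24.8, 14.9 and 9.39 CPM across wild type, against 28.9 and 27.1 CPM across NICcA. Its mean was 16.4 ± 7.83 CPM across wild type and 28.0 ± 1.31 CPM across NICcA (mean ± SD, n = 3 and n = 2), and the wild type libraries alone spanned 9.39 to 24.8 CPM (log2 change 0.78, SE 0.37, adjusted p = 0.38).

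The activators of this step were at lower levels. Foxm1, the transcription factor that drives late cell cycle genes, was at 10.2, 6.11 and 2.73 CPM across wild type, against 11.7 and 11.6 CPM across NICcA (log2 change 0.87, SE 0.49, adjusted p = 0.43). The NICcA libraries were nearly equal for Foxm1 and lay above all wild type libraries. Cdc25c, the phosphatase that removes the inhibitory phosphates of Cdk1, had the lowest level of the 46 genes per transcript length, at a mean of 0.438 RPKM in wild type and 0.897 RPKM in NICcA (the authors' values, corrected for transcript length and sequencing depth). Its counts were 96, 74 and 35 in wild type and 132 and 152 in NICcA, in the same order as those of Foxm1 within wild type.

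Of the mitotic kinases and their partners, 6 genes, the groups did not overlap for all 6 (18.3% of all genes). Aurkb, the kinase of the chromosomal passenger complex, was at 21.3, 14.0 and 8.18 CPM across wild type, against 27.3 and 25.5 CPM across NICcA (log2 change 0.87, SE 0.36, adjusted p = 0.35). Birc5, which encodes survivin, the subunit that brings Aurkb to centromeres, was at 20.0, 13.1 and 6.27 CPM across wild type, against 25.0 and 26.0 CPM across NICcA (log2 change 0.96, SE 0.43, adjusted p = 0.36). For both genes the step from wild type replicate 1 to the NICcA mean was among the larger ones of the list, 1.24-fold for Aurkb and 1.27-fold for Birc5. Tpx2, which activates Aurka on spindle microtubules, was at 28.3, 17.7 and 9.39 CPM against 33.3 and 31.4 CPM. Aurka, the kinase of spindle poles, Plk1, the polo kinase of mitotic entry and exit, and Nek2, the kinase that splits centrosomes, had log2 fold changes of 0.86 to 0.90 and adjusted p-values of 0.37 to 0.43.

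The spindle checkpoint, the anaphase-promoting complex (APC/C) and the regulators of separase held both the gene with the largest step above wild type replicate 1, Cdc20, and the 2 with the smallest ratio of wild type replicate 1 to replicate 3, Bub3 and Pttg1. Cdc20, the APC/C activator that the checkpoint holds in check, was at 26.0, 17.3 and 6.77 CPM across wild type, against 35.03 and 33.9 CPM across NICcA. It had the largest ratio of the NICcA mean to wild type replicate 1 in the list, 1.33, and its log2 change was 1.05 (SE 0.49, adjusted p = 0.37). Without wild type replicate 3 that value was 0.67 (SE 0.21, adjusted p = 0.37). Ube2c, the ubiquitin-conjugating enzyme of the APC/C, was at 12.2, 7.78 and 2.96 CPM against 15.6 and 14.0 CPM, and Espl1, the separase that cleaves cohesin, at 14.2, 9.12 and 4.37 CPM against 18.5 and 16.6 CPM. Both had the same order of libraries as Cdc20.

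Among checkpoint kinases and adaptors, Ttk and Bub1 varied widely and Bub3 hardly at all. Ttk, the kinase Mps1 that starts checkpoint signalling, was at 5.41, 3.22 and 1.32 CPM across wild type, against 6.72 and 6.49 CPM across NICcA. Bub1, a checkpoint kinase at the kinetochore, was at 16.1, 7.67 and 3.54 CPM across wild type, against 15.5 and 14.7 CPM across NICcA. Wild type replicate 1 was thus the highest library for Bub1, whose groups overlapped (adjusted p = 0.55), as did those of Mad2l1 and Sgol1. Mad2l1 encodes the checkpoint protein that captures Cdc20, and Sgol1 the protector of centromeric cohesin. Bub1b, the pseudokinase BubR1, had a narrower spread, at 47.5, 34.5 and 27.1 CPM across wild type, against 52.7 and 52.9 CPM across NICcA.

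Bub3, the adaptor that brings Bub1 and BubR1 to kinetochores, was at 56.9, 53.7 and 52.7 CPM across wild type, against 69.1 and 61.5 CPM across NICcA. Per transcript length it had the highest mean level of the list over the 5 libraries (20.9 RPKM in wild type and 27.1 RPKM in NICcA, where Mki67 was higher), and its highest library was 1.31-fold its lowest. Its fold change was among the smallest of the list (log2 change 0.26, SE 0.10), but with wild type libraries so close together it was the 1 gene of the list below an unadjusted 0.05 in edgeR (adjusted p = 0.34). Pttg1, which encodes securin, the inhibitor of separase, was at 8.80, 8.83 and 8.18 CPM across wild type, against 12.6 and 8.18 CPM across NICcA. It was high in NICcA replicate 2 alone, and without that library its log2 fold change was -0.07.

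**Figure D3:**
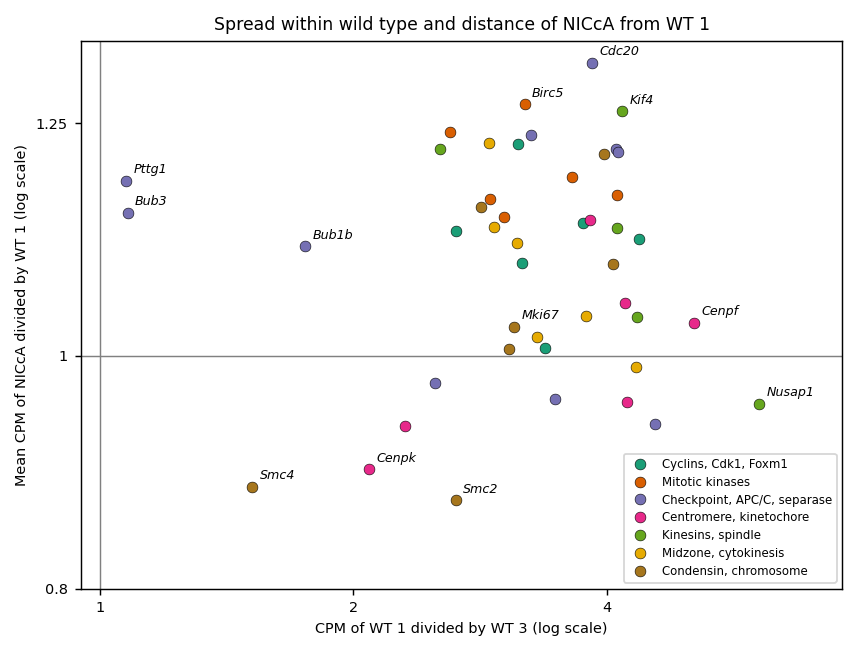
Ratio of wild type replicate 1 to replicate 3 (x axis, log scale) against the ratio of the NICcA mean to wild type replicate 1 (y axis, log scale) for the 46 genes, coloured by role, from CPM. The x values run from 1.08 for Pttg1 to 6.06 for Nusap1, while the y values stay between 0.871 for Smc2 and 1.33 for Cdc20.

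Of the 6 centromere and kinetochore genes, the groups did not overlap for 2 (18.3% of all genes). Cenpa, the histone H3 variant that marks centromeres, was at 28.2, 16.9 and 12.3 CPM across wild type, against 25.5 and 27.3 CPM across NICcA, so that wild type replicate 1 was the highest library (log2 change 0.47, SE 0.33, adjusted p = 0.52). Cenpe, a kinesin that carries chromosomes to the spindle equator, and Cenpf, a large kinetochore protein, also overlapped. Cenpf was at 49.1, 22.1 and 9.68 CPM across wild type, against 42.6 and 58.8 CPM across NICcA, the largest ratio of NICcA replicate 3 to replicate 2 in the list, 1.38. Nuf2 and Ndc80, partners in the complex that binds microtubules, did not overlap. Nuf2 was at 13.4, 7.04 and 3.51 CPM across wild type, against 14.6 and 15.8 CPM across NICcA (log2 change 0.94, SE 0.50, adjusted p = 0.41), and Ndc80 at 9.75, 4.67 and 2.32 CPM against 10.2 and 10.3 CPM. Cenpk, a subunit of the constitutive centromere network, was the lowest of the group, at 2.72, 1.86 and 1.31 CPM against 2.59 and 2.30 CPM (log2 change 0.32, SE 0.34, adjusted p = 0.66). Its 2 transcript rows differed, and the row not used had a log2 fold change of 0.69.

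Among the 5 kinesins and spindle proteins, the groups did not overlap for 3 (18.3% of all genes). Nusap1, which bundles spindle microtubules, was at 26.8, 11.7 and 4.42 CPM across wild type, against 25.8 and 25.3 CPM across NICcA. Its ratio of wild type replicate 1 to replicate 3, 6.06, was the largest of the 46 genes, and both NICcA libraries were below wild type replicate 1. Kif4, a chromosome-borne kinesin, was at 15.9, 9.43 and 3.81 CPM across wild type, against 20.5 and 19.7 CPM across NICcA. The groups of Kif4 did not overlap, and it had the largest log2 fold change of the list (1.05, SE 0.52, adjusted p = 0.39). Kif22, another kinesin that pushes chromosome arms, was at 17.7, 12.6 and 6.97 CPM against 20.0 and 23.1 CPM (log2 change 0.79, SE 0.36, adjusted p = 0.36). Kif11, the motor that separates spindle poles, overlapped, and Kif2c, a kinesin that takes microtubules apart, did not.

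The genes of the spindle midzone and cytokinesis had log2 fold changes in a narrow band, from 0.70 to 0.88. Prc1, which crosslinks midzone microtubules, was at 38.1, 19.9 and 12.2 CPM across wild type, against 43.2 and 41.7 CPM across NICcA (log2 change 0.86, SE 0.43, adjusted p = 0.39). Racgap1, a subunit of the centralspindlin complex, was at 24.6, 15.99 and 8.48 CPM against 31.6 and 28.8 CPM (log2 change 0.88, SE 0.40, adjusted p = 0.36). Both NICcA libraries lay above wild type replicate 1 for these genes and for Kif20a and Kif23, kinesins of the midzone. Anln, the scaffold of the contractile ring, was at 38.3, 22.3 and 11.6 CPM against 36.8 and 41.2 CPM (log2 change 0.70, SE 0.45, adjusted p = 0.48), so its groups overlapped. Ect2, the exchange factor that switches on RhoA for the ring, overlapped as well.

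Of the 7 condensin and chromosome genes, the groups did not overlap for 4 (18.3% of all genes), and Mki67 and Top2a had the highest CPM of the list. Mki67, the proliferation marker Ki-67 that coats mitotic chromosomes, was at 326, 190 and 105 CPM across wild type, against 337 and 333 CPM across NICcA. The NICcA libraries exceeded wild type replicate 1 by a ratio of 1.03 for Mki67 (log2 change 0.70, SE 0.43, adjusted p = 0.46). Top2a, the topoisomerase that untangles sister DNA, was at 148, 73.6 and 36.4 CPM against 163 and 160 CPM (log2 change 0.91, SE 0.52, adjusted p = 0.43). Per transcript length, Mki67 stood at 16.3 RPKM in wild type and 28.3 RPKM in NICcA and Top2a at 13.1 and 26.4 RPKM. Smc4, a core ATPase of both condensin complexes, was at 78.7, 55.3 and 51.9 CPM across wild type, against 61.4 and 77.5 CPM across NICcA. It had the smallest log2 fold change of the 46 genes (0.16, SE 0.21, adjusted p = 0.72), and its sign turned without NICcA replicate 3 (-0.012). Its partner Smc2 also overlapped (log2 fold change 0.46, adjusted p = 0.58). Of the subunits found in condensin I alone, Ncapd2 was at 38.2, 24.3 and 9.64 CPM against 46.4 and 46.4 CPM (log2 change 0.95, SE 0.50, adjusted p = 0.41), Ncaph had a log2 fold change of 0.89 and Ncapg of 0.68.

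Further genes of the same processes were taken from lists of pathway genes. Of 64 further spindle, kinetochore and mitotic kinase genes, 62 had a positive log2 fold change (median 0.75), and 0 passed edgeR or DESeq2 after adjustment. Without wild type replicate 3 their median was 0.45. At an unadjusted p below 0.05 edgeR took 6 on the higher side (7.68% of all genes), and 59 followed the order of wild type replicates 1, 2 and 3 (18.8% of all genes). Cenpm, a centromere subunit, had the largest log2 fold change of that list (1.26, SE 0.63, adjusted p = 0.39) and Cenpo, another one, the smallest (-0.13, SE 0.12, adjusted p = 0.62). Core subunits and partners of the APC/C and cohesin, 24 genes, were split: 12 had a positive and 12 a negative value (median 0.02). Of the 24, 4 followed the wild type order, a share near the 18.8% of all genes. They ranged from -0.27 (SE 0.17, adjusted p = 0.46) for Nipbl, the cohesin loader, to 0.43 (SE 0.20, adjusted p = 0.37) for Ube2s, a ubiquitin-conjugating enzyme of the APC/C. Again 0 passed edgeR or DESeq2 after adjustment, and 1 had an unadjusted p below 0.05 in edgeR, on the higher side (7.68% of all genes).

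The DREAM, MuvB and E2F list of 21 genes had a median of 0.05, with 0 past edgeR's threshold, 4 at an unadjusted p below 0.05 in edgeR, all higher (7.68% of all genes), and 1, Mybl2, called higher by DESeq2 (2.05% of all genes). Mybl2, which encodes B-Myb, the partner that turns MuvB into an activator, was at 5.69, 3.78 and 1.96 CPM across wild type, against 11.4 and 8.36 CPM across NICcA (log2 change 1.37, SE 0.42, adjusted p = 0.30). Its fold over wild type replicate 1 was thus wider than that of any of the 46 genes. E2f7, a repressor of the E2F family, had the largest value (log2 change 1.41, SE 0.49, adjusted p = 0.32) and Rb1, the retinoblastoma protein, the smallest (-0.43, SE 0.20, adjusted p = 0.37).

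S phase genes also followed the gradient, with 31 of 34 in the order of wild type replicates 1, 2 and 3. All 34 had a positive log2 fold change (median 0.74), and the groups did not overlap for 28 (18.3% of all genes). Without wild type replicate 3 their median was 0.505. With edgeR 0 passed after adjustment, and 18 had an unadjusted p below 0.05 (7.68% of all genes). DESeq2 called 3 of them higher (2.05% of all genes), Pold1, Mcm6 and Mcm2. Uhrf1, which keeps DNA methylation through replication, had the largest log2 fold change (1.36, SE 0.53, adjusted p = 0.34) and Pcna, the sliding clamp, the smallest (0.14, SE 0.13, adjusted p = 0.64). The list median lay at 0.91 and 0.70 on the log2 scale above the wild type mean in NICcA replicates 2 and 3 and at 0.52 in wild type replicate 1. For the 46 mitosis genes the same medians were 1.02, 0.996 and 0.841. Whether the lists differ in their distance from wild type replicate 1 was not tested.

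**Figure D4:**
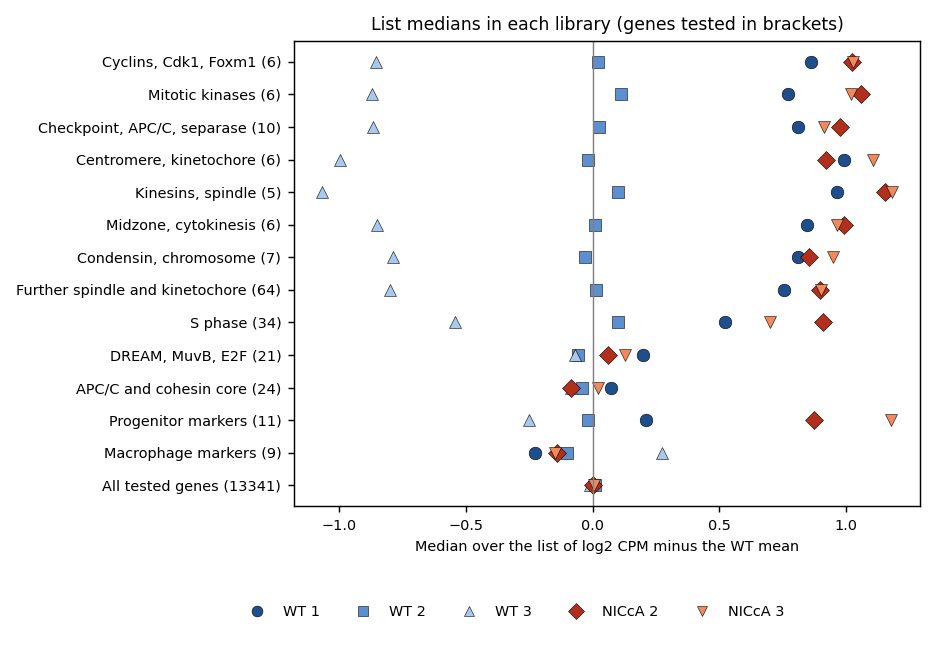
Median over each gene list (y axis, number of genes tested in brackets) of log2 CPM minus the mean log2 CPM of the 3 wild type libraries (x axis), with 1 symbol per library. The 7 role groups of the 46 genes, the further spindle genes and the S phase genes spread from wild type replicate 3 on the left to NICcA on the right. The centromere and kinetochore group differs in that wild type replicate 1 lies to the right of NICcA replicate 2. The list of APC/C and cohesin genes and all tested genes stay near 0.

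Summed markers of immature cells were also lowest in wild type replicate 3 and highest in NICcA, although fewer of the single markers kept the order of wild type replicates 1, 2 and 3. The summed level of 11 markers of haematopoietic progenitors was 30.3, 21.2 and 10.97 CPM across wild type replicates 1, 2 and 3, against 46.6 and 42.2 CPM across NICcA replicates 2 and 3. That sum was carried mostly by Cd34, Kit and Gata2. The median marker was low, at 0.192 RPKM in wild type replicate 3 and up to 0.502 RPKM in NICcA replicate 3. Cd34, a surface sialomucin of progenitors, was at 12.8, 4.86 and 1.90 CPM against 20.0 and 18.0 CPM, and Gata2, a progenitor transcription factor, at 3.92, 1.45 and 0.622 CPM against 9.81 and 5.45 CPM. Myb was at 1.13, 0.805 and 0.501 CPM against 2.54 and 1.77 CPM. That order held for 5 of the 11 markers, and the groups did not overlap for 8, with NICcA higher (18.3% of all genes). Among the 6 without that order, Kit, the stem cell factor receptor, was at 9.80, 11.4 and 5.42 CPM against 9.69 and 11.9 CPM, and Mpo, the granule enzyme of early myeloid cells, had counts of 1, 3 and 11 in wild type and 0 and 12 in NICcA, and 0 of the 11 markers was at 0 in every library. The 9 macrophage markers summed to 13807, 16416 and 20300 CPM across wild type and to 11938 and 12509 CPM across NICcA, a sum carried mostly by Lyz2. Of the 9, 4 had a positive and 5 a negative log2 fold change. Their median deviation from the wild type mean was -0.23, -0.10 and 0.27 (log2 scale) across wild type replicates 1, 2 and 3. NICcA replicates 2 and 3 had medians of -0.14 and -0.15, so both NICcA libraries lay between wild type replicates 1 and 2. Summed neutrophil markers were at 55.1 to 104 CPM across wild type and 115 to 129 CPM across NICcA, and dendritic cell markers at 60.6 to 115 and 111 to 202 CPM. Flt3 stands in both the progenitor and the dendritic cell list. Stromal markers summed to 18.5 CPM in wild type replicate 1 and to between 1.52 and 3.16 CPM in the other 4 libraries. Markers of erythroid cells, B cells, and T and NK cells summed to between 0.451 and 4.42 CPM in each library, with no list at 0. The part of any of these cells in the mitosis genes was not tested.

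The authors' second table holds RPKM values alone. For these genes it gave the same log2 fold changes as the RPKM of the first table (median 0.87 in both). Its direction is therefore no separate result. In limma on log2(RPKM + 1), 45 of the 46 genes passed the filter of at least 1 RPKM in at least 2 libraries, Cdc25c being the exception. Their median log2 fold change on that scale was 0.87, 22 had an unadjusted p below 0.05 (11.4% of all transcripts on the higher side) and 0 passed after adjustment (0.00884% of all transcripts). The same limma test on the RPKM of the first table took 17 of 45 at an unadjusted p below 0.05 (14.6% of all genes on the higher side). These fits differ in the transcripts tested beside the 45 genes. Neither the strand setting nor the treatment of shared reads is given in the sources used here, so reads of genes that overlap others cannot be told apart. In the GRCm38 annotation, exons of Kif20a overlap those of Cdc23, exons of Kif4 those of Pdzd11, exons of Prc1 those of Rccd1, exons of Ncapg those of Lcorl and exons of Ccna2 those of Exosc9, each on the opposite strand. Exons of Plk1, Nek2, Cdc20, Ube2c and Nusap1 also overlap those of another gene on the opposite strand. Exons of Foxm1 overlap those of Tex52 and Gm44596 on the same strand.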

How the data were processed

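Messenger RNA of 5 macrophage cultures was sequenced, and groups follow the labelled genotype. Bowtie 0.12.2 and build mm8 appear in the submitters' processing notes without a role. The counting tool is not given in the sources used here. Per the file headers and the design text, the first table holds the authors' read count and RPKM for 27457 transcript rows, and the second, also deposited, RPKM alone for 64528 rows. In 47 rows the symbol had become a date, and 46 were renamed by accession.

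The test was glmQLFTest of edgeR 4.0.16 (R 4.3.3) after filterByExpr, TMM and glmQLFit, with genotype alone in the design and Benjamini-Hochberg adjustment over 18267 rows, of which 13341 genes are counted by their row of highest mean count. The SE of a log2 change is its size over the root of its F statistic. Deviations use log2 CPM with a prior count of 2. limma 3.58.1 was run on log2(RPKM + 1). The edgeR step was tested on simulated data that held no gradient shared by genes, and its power at the fold changes seen here is not given. The members and lists were chosen with earlier results of these data known, so no list test was made. Values for every library are given, by rule, for the member of highest RPKM and of largest and smallest log2 fold change in each role group and for Mki67, Top2a, Cdk1, Ccnb1, Foxm1 and Birc5. Of each further list the largest and smallest log2 fold change are named. Other genes were chosen after their values were seen. Alternatives were RLE or no scaling factors, other filters, DESeq2 1.42.0, limma-voom, 1 row per gene, log2 RPKM with limma, a replicate term, and leaving out libraries in turn. Motifs and figures used Python 3.11.15, pandas 2.3.3 and matplotlib 3.10.9. Promoters come from RefSeq on GRCm38.p6, another build than mm8, and no coordinates of the deposited rows are given.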

Additional observations from a re-analysis of the deposited data

How the results depend on the processing

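Under every alternative run, 0 of the mitosis genes passed after adjustment and their median log2 fold change stayed positive. It was 0.85 or 0.94 with RLE or no scaling factors, 1.03 with limma-voom and 1.09 with limma on log2(RPKM + 0.1), and 0.51 to 1.40 with 1 library left out. The list medians of the wild type libraries had an SD of 0.86 on the log2 scale (n = 3), as large as the main median of 0.85. That SD comes from the same libraries that were left out, so it cannot show whether these shifts are small. Without scaling factors the median of all genes moved to 0.11, to which the 0.94 is relative, and groups not overlapping on the higher side made up 29.2% of all genes. The count of mitosis genes with groups not overlapping was 30 or 31 under every setting with all libraries and 30 to 45 with 1 left out. With all libraries and no replicate term, the count at an unadjusted p below 0.05 ranged from 1 with edgeR to 22 with limma-voom (8.88% of all genes), and was 11 with no filter on low counts (6.35% of all genes). The fits that leave NICcA with 1 library assume that it varies like the others. Of the further pathway lists, DESeq2 called 4 genes where edgeR called 0. Smc4 turned to -0.012 without NICcA replicate 3, and reached 0.38 without wild type replicate 1. With the replicate number as a block, wild type replicate 1 has no partner and does not enter the estimate of the genotype difference. In that fit the median was 1.45 and 42 genes had an unadjusted p below 0.05 (11.5% of all genes), with 0 past the threshold. It thus largely repeats the fit without wild type replicate 1, where the median was 1.40 and the count also 42 (11% of all genes). Deviations of same-numbered libraries from their group means correlated across genes at 0.206 for number 2 and 0.168 for number 3. With 2 NICcA libraries these deviations are equal and opposite, so the other NICcA library gave -0.206 and -0.168. The values are thus not separate signs of a pairing, and the labels do not say that a number marks a shared batch.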
